A study of Mus musculus with 3 samples.

Results

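Apoptotic cell clearance was followed through 8 genes: the receptors Mertk, Axl, Timd4 and Cd300lf, the bridging molecules Gas6, Pros1 and Mfge8, and the nuclease Dnase1l3. They are 8 of the 32285 genes in the count matrices and were taken by name; each is present in the matrices of all 3 libraries. The list was drawn up with values of these libraries in view, since Mfge8 and Dnase1l3 had been seen to be lower in one of them. All ratios of these 2 genes, in cell classes and in their sub-clusters, are therefore given as a description. The study asked how B cells and T cells interact in the adventitia of mice whose atherosclerosis is accelerated by raised homocysteine.

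Each of the 3 libraries held single CD45+ live cells sorted from whole aortas of mice labelled ApoE-/- on the C57BL/6J background, with the adventitia kept and the fat removed. The Ctrl library came from control mice. The library labelled HHcy came from mice that drank water with homocysteine (1.8 g/L) during 4 weeks, and the WD library from mice fed a western diet over 4 weeks. All groups therefore share the Apoe disruption on their labels, which the Apoe counts below go against for the library labelled HHcy. There was 1 library per group. How many animals were pooled, and their age and sex, are not stated in the labels. With 1 library per group no test between conditions was possible, both comparisons share the Ctrl library, and every interval below is a 95% interval that covers counting error only.

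Efferocytosis, the uptake of dying cells by phagocytes, starts with phosphatidylserine exposed on the dying cell. Timd4 binds this lipid directly, and Cd300lf is a lipid-binding receptor of myeloid cells that can inhibit or promote uptake. The receptor tyrosine kinases Mertk and Axl see phosphatidylserine through soluble bridging proteins, Gas6 for both and Pros1 for Mertk. Mfge8 links phosphatidylserine to integrins on the phagocyte, and Dnase1l3 is a secreted nuclease that digests DNA in chromatin and in the particles that dying cells release. In atherosclerotic arteries, poor clearance of dying macrophages is known for its part in the growth of the necrotic core.

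Promoter sequences are shown for 4 members whose levels differed between the cell types described below: Timd4 in resident and large peritoneal macrophage-like cells, Cd300lf in neutrophil-like cells and monocytes, and Axl and Gas6 in both stromal cells and macrophages. They are RefSeq sequences of build GRCm38.p6, 250 bases before to 50 bases after the annotated start, read 5′ to 3′ on the strand of the gene, and 7 of the 8 members were matched in that table. Capitals mark the motif letters found in each window on either strand. The positions are chr11:46810549-46810848 (plus strand) for Timd4, chr11:115133943-115134242 (minus strand) for Cd300lf, chr7:25788684-25788983 (minus strand) for Axl and chr8:13494486-13494785 (minus strand) for Gas6.
Timd4: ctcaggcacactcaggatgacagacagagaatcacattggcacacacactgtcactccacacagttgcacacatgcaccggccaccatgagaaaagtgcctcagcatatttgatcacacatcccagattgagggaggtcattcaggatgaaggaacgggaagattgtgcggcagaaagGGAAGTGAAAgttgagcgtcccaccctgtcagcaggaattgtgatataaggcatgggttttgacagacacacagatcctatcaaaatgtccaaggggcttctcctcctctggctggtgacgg
Cd300lf: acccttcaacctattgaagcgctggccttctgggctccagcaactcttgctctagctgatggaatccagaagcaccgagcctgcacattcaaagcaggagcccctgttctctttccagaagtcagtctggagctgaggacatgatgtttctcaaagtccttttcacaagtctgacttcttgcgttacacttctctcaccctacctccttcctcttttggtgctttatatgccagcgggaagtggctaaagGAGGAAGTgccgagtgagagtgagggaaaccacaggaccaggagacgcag
Axl: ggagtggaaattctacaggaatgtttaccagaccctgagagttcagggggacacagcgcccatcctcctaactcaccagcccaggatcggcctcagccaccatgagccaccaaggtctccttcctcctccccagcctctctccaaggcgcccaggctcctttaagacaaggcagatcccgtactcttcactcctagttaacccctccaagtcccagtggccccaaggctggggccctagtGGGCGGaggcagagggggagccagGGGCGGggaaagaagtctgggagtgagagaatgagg
Gas6: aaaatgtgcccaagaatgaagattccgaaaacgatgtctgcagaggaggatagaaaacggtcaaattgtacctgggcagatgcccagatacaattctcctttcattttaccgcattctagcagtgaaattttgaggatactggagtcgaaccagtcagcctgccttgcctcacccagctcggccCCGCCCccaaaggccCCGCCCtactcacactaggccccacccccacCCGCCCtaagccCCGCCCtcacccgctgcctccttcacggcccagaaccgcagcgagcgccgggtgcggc

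The Timd4 window holds 1 match, in capitals, to the ETS-IRF composite element (GGAA, a pair of free bases, GAAA), 72 bases before the start; 2.72% of 32851 promoter windows of 300 bases hold these letters. The Cd300lf window holds 1 match to GAGGAAGT, letters of the PU.1 type, which 3.2% of the windows hold. Axl has 2 matches and Gas6 4 matches to the GC box GGGCGG, which 35.7% of the windows hold. Mertk, Mfge8 and Pros1, whose promoters are not printed, had 4, 4 and 5 GC boxes. These matches describe letters and were not linked to any measurement here.

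On GRCm38 the 4 receptor genes are Mertk (ENSMUSG00000014361) at chr2:128698956-128802894 on the plus strand, Axl (ENSMUSG00000002602) at chr7:25757273-25788705 on the minus strand, Timd4 (ENSMUSG00000055546) at chr11:46810800-46844332 on the plus strand and Cd300lf (ENSMUSG00000047798) at chr11:115116214-115133992 on the minus strand. The bridging genes are Gas6 (ENSMUSG00000031451) at chr8:13465374-13494490 on the minus strand, Pros1 (ENSMUSG00000022912) at chr16:62854307-62929346 on the plus strand and Mfge8 (ENSMUSG00000030605) at chr7:79133768-79149060 on the minus strand. Dnase1l3 (ENSMUSG00000025279) lies at chr14:7964533-7994573 on the minus strand. All 8 are annotated as protein coding. Exons of Mertk, Gas6 and Cd300lf overlap exons of a gene on the opposite strand (Gm14011, Tmem255b and Rab37). Cd300lf sits in a family of similar receptor genes, so its counts are uncertain where a read fits a relative.

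The libraries held 66789257, 105180370 and 93164076 UMIs (unique molecular identifiers, the counted molecules) in 7512, 9753 and 8557 barcodes, in the order Ctrl, labelled HHcy, WD, which is kept below. After filters on gene number and mitochondrial share and removal of multiplets by lineage markers, 5372, 6417 and 5334 cells were used, with medians of 7569.5, 6773 and 8147.5 UMIs. The multiplet share was 11%, 21.3% and 20.5%. Pairs of libraries shared 20 to 24 barcodes, at most 0.319% of the smaller library.

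Apoe, the gene named as disrupted, was read first. It held 1090 UMIs or 16.3 CPM (the gene's UMIs per 1000000 UMIs of all genes in the same cells) in the Ctrl library, 39368 UMIs or 374 CPM in the library labelled HHcy and 1801 UMIs or 19.3 CPM in the WD library. The middle library thus went against the genotype on its label and is called the library labelled HHcy throughout. Which part of Apoe was removed is not given, so 3′ counts at the level of the other 2 libraries do not check the allele. In the library labelled HHcy, 192 of 1243 macrophage/monocyte-like cells and 21 of 3859 B cell-like cells held 10 or more Apoe UMIs, called Apoe-high barcodes below. Values that rest on them are also given without them, or their part is said to be untested.

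Cells were named by markers that exclude the 8 members and the other clearance genes. B cell-like cells numbered 2345, 3859 and 1326, and macrophage/monocyte-like cells 2001, 1243 and 2728. The B1-like sub-cluster (a B cell type of body cavities and serosal fat that makes natural antibody) had 1110, 719 and 485 cells, or 47.3%, 18.6% and 36.6% of the B cells. At least 25% of its cells detected 8 of its 10 markers in the pooled cells, while Cd5 (5.77%, 7.93% and 7.01% of cells) and Spn (16.8%, 17.9% and 21.2%) stayed below that share. The list is not specific to B cells. Macrophage/monocyte-like cells detected 6 of the 10 at that share in each library, and neutrophil-like cells 3, with sums of 5683, 9000 and 7640 CPM. The name therefore sets this sub-cluster apart among B cells only. A naive follicular B-like group of 2 sub-clusters (with Fcer2a and Ighd), an immature B-like sub-cluster, a cycling one and an unnamed one made up the rest of the B cells. Among macrophages, the resident-like cells (Lyve1, Folr2, Cd163) numbered 464, 352 and 602, the foamy-like cells (Spp1, Gpnmb, Mmp12; 2 sub-clusters) 302, 167 and 530, and a sub-cluster with all 7 large peritoneal macrophage markers 116, 82 and 117. Cells with a peritoneal marker profile were thus present in the aortic preparation of every library.

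**Figure D1:**
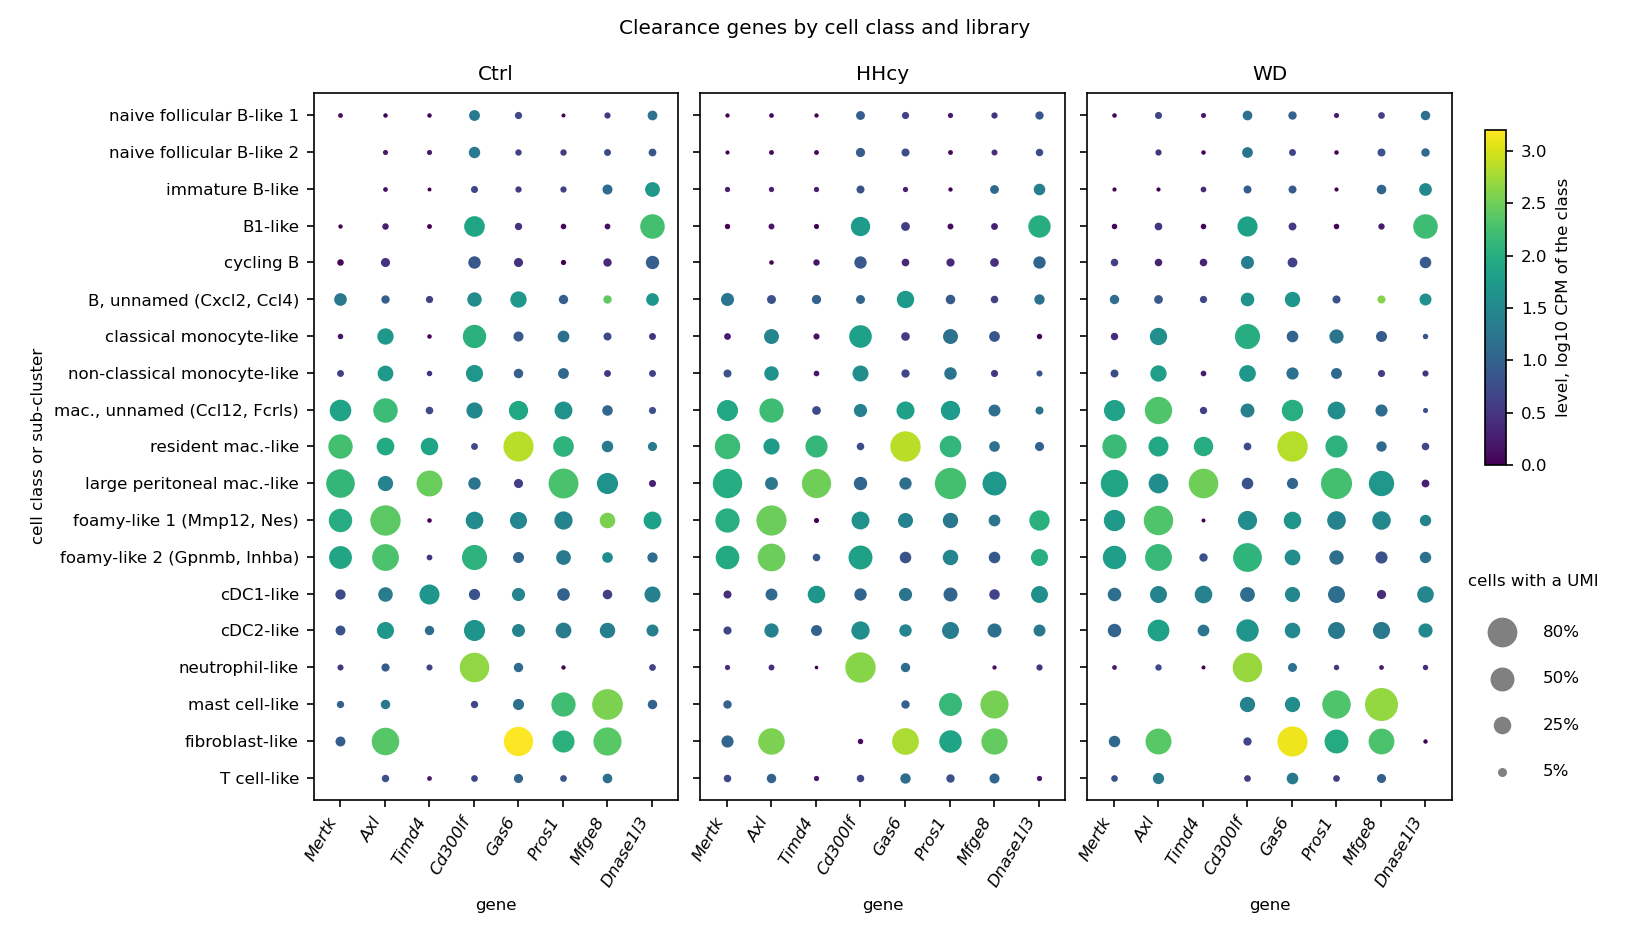
Levels of the 8 genes (columns) by cell class or sub-cluster (rows) in the 3 libraries (panels). Dot area is the percent of cells with at least 1 UMI and colour is the log10 CPM of the summed UMIs; no dot means 0 UMIs. Gas6 is high in resident macrophage-like and fibroblast-like cells, Timd4 in large peritoneal and resident macrophage-like cells, Cd300lf in neutrophil-like cells and Dnase1l3 in B1-like cells, in each panel.

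In B cells, 4 members had at least 100 UMIs over the 2 libraries compared. Of these, 3 were at least 1.5-fold lower in the library labelled HHcy (Dnase1l3, Cd300lf and Mfge8) and 0 were higher, against a background of 6.58% lower and 3.03% higher among all 10257 genes compared. In the WD library 1 of 4 was higher (Mfge8) and 0 lower, against 1.67% and 1.73% of 9532 genes. With a minimum of 20 UMIs all 8 entered in B cells. Then 1 was higher and 3 lower in the library labelled HHcy, and 3 were higher and 0 lower in WD. The share over all genes was not counted at that minimum, so nothing is read from these counts. In macrophages and monocytes all 8 could be compared. In the library labelled HHcy, 1 was higher (Timd4) and 1 lower (Mfge8), against 2.05% and 2.51% of 9889 genes. In the WD library 0 were higher and 2 lower (Mfge8 and Dnase1l3), against 2.69% and 2.86% of 10699 genes. The choice of Mfge8 and Dnase1l3 used these contrasts, so nothing is read from those counts.

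**Figure D2:**
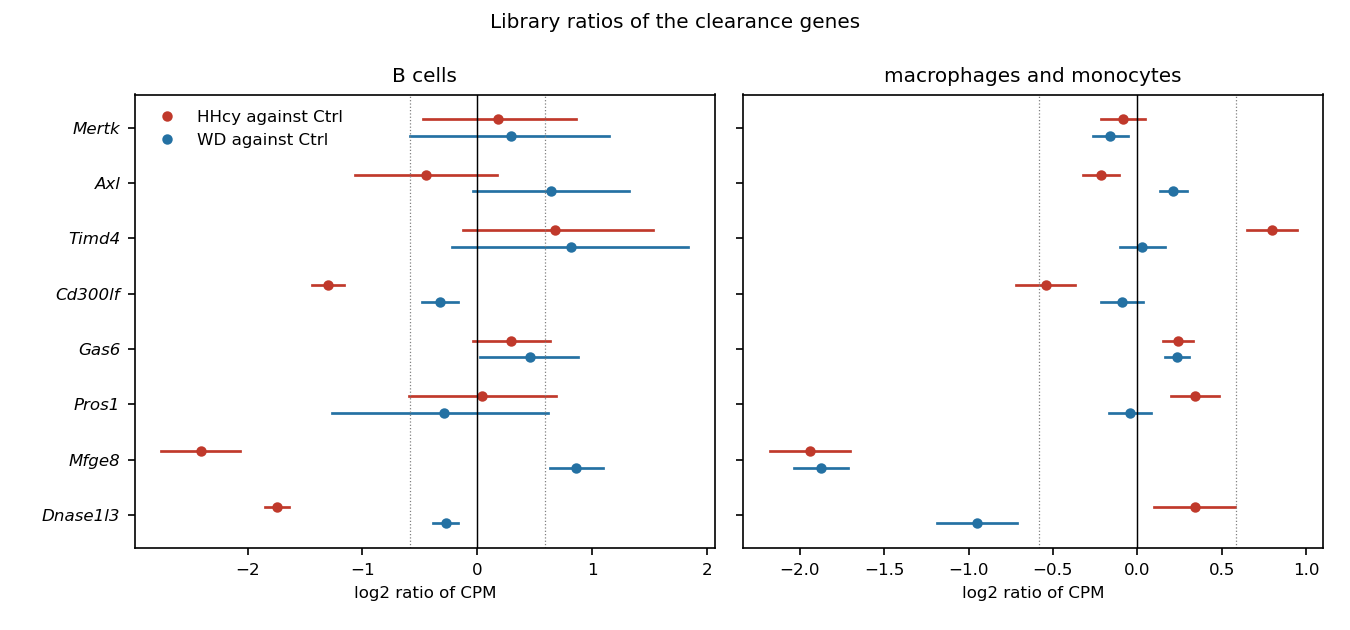
Log2 ratio of CPM of each treated library to the Ctrl library for the 8 genes, in B cells (left) and in macrophages and monocytes (right), with 95% counting intervals; dotted lines mark 1.5-fold. Dnase1l3, Cd300lf and Mfge8 lie left of the lower line for the library labelled HHcy in B cells (-1.74, -1.30 and -2.40), and Mfge8 lies left of it for both libraries in macrophages (-1.94 and -1.87).

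Mertk, the receptor that macrophages use for most uptake of dying cells at rest, was highest in resident macrophage-like cells. Its level there was 173 CPM (157 to 191) in the Ctrl library, 152 CPM (136 to 169) in the library labelled HHcy and 146 CPM (134 to 158) in the WD library, and 51.9%, 56.8% and 51.7% of the cells held a UMI. The intervals overlap in every pair of libraries, by little for Ctrl and WD, and the log2 ratios to Ctrl were -0.19 (-0.40 to 0.02) and -0.25 (-0.43 to -0.07). In the library labelled HHcy the Apoe-high resident-like cells had 123 CPM of Mertk and the others 166 CPM.

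Large peritoneal macrophage-like cells followed with 133, 95.6 and 76.3 CPM of Mertk. The Ctrl library was the highest of the 3 and its interval (116 to 153) did not overlap that of either other library (80.5 to 113 and 64.9 to 89), which gave log2 ratios of -0.48 (-0.80 to -0.16) and -0.80 (-1.11 to -0.50). Without Apoe-high barcodes the first of these was -0.31 (-0.68 to 0.06), and with each cell thinned to 2000 UMIs it was 0.24. Foamy-like cells had 87.5, 95 and 57.8 CPM, lower in the WD library by a log2 ratio of -0.60 (-0.80 to -0.40). In classical monocyte-like cells Mertk was 1.42 to 2.58 CPM, in B1-like cells 0.486 to 1.09 CPM and in neutrophil-like cells 1.75 to 3.2 CPM. The macrophage sub-clusters lay above classical monocyte-like cells in every library, and the intervals of resident-like and peritoneal-like cells did not overlap in any library.

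Axl, the related receptor induced by inflammatory signals, had a different place. Foamy-like cells had 223 CPM (209 to 238), 304 CPM (281 to 330) and 174 CPM (165 to 183) of Axl, with 74.2%, 77.2% and 71.1% of cells positive. They were the highest of the macrophage groups in the first 2 libraries. The 3 intervals did not overlap, the library labelled HHcy being the highest and WD the lowest (log2 ratios 0.45, 0.30 to 0.60, and -0.36, -0.48 to -0.24). The excess in the library labelled HHcy depended on which cells were called foamy-like: the log2 ratio was -0.61 with multiplets kept and -0.33 when cells were named singly by markers, and 0.45 without Apoe-high barcodes.

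In resident macrophage-like cells Axl was 86.9, 56.9 and 80.7 CPM. Here the library labelled HHcy was the lowest, with a log2 ratio of -0.61 (-0.94 to -0.29), which was -0.34 (-0.70 to 0.01) without Apoe-high barcodes, -0.12 with each library clustered on its own and -0.10 at 2000 UMIs per cell. The Apoe-high resident-like cells of that library had 33.3 CPM of Axl and the others 68.5 CPM. In conventional dendritic cells of type cDC2 the library labelled HHcy was also the lowest and WD the highest, with 50.9, 26.1 and 66.7 CPM and ratios on the log2 scale of -0.96 (-1.36 to -0.57) and 0.39 (0.13 to 0.66). The unnamed macrophage sub-cluster led by Retnla, Ccl12 and Fcrls had 151, 161 and 206 CPM, in WD above the foamy-like level, and fibroblast-like cells, of which there were 31, 85 and 175, had 227, 366 and 233 CPM.

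Timd4, the phosphatidylserine receptor of long-lived tissue macrophages, was highest in 2 macrophage sub-clusters. Large peritoneal macrophage-like cells had 295 CPM (269 to 324), 313 CPM (285 to 343) and 311 CPM (287 to 336), and resident macrophage-like cells 73.1 CPM (62.8 to 84.6), 136 CPM (121 to 153) and 97.6 CPM (88.4 to 108). The intervals of the peritoneal levels overlap in all 3 libraries, while those of the resident levels do not overlap in any pair. The share of peritoneal-like cells with a UMI was 59.5% (50 to 68.5), 76.8% (66.2 to 85.4) and 79.5% (71 to 86.4) at median depths of 12894.5, 18177.5 and 17984 UMIs, and 34.8%, 37% and 41.4% at 2000 UMIs per cell, where the intervals overlap. The share of resident-like cells with a UMI was 25%, 42.0% and 31.6%, at median depths of 4728, 6000 and 6238.5 UMIs; at 2000 UMIs per cell it was 14.3%, 20.6% and 13.4%. Relative to Ctrl the log2 ratio was 0.90 (0.63 to 1.17) in the library labelled HHcy, whereas WD had 0.42 (0.16 to 0.68). The first was 0.57 at 2000 UMIs per cell, while the second was 0.08 with up to 20% mitochondrial UMIs allowed, -0.10 at a finer clustering and -0.03 at 2000 UMIs per cell, so the WD difference did not hold in these 3 of 9 other settings and was 0.34 to 0.50 in the other 6.

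Part of the Timd4 level in the library labelled HHcy lay in Apoe-high barcodes. They made up 106 of 352 resident-like cells (30.1%) and 37 of 82 large peritoneal-like cells (45.1%), and Timd4 in them was 168 against 121 CPM in the other resident-like cells and 395 against 247 CPM in the other peritoneal-like cells. Without them, resident-like cells of that library kept a log2 ratio of 0.72 (0.41 to 1.03), and peritoneal-like cells had -0.26 (-0.50 to -0.01). Over all macrophages and monocytes Timd4 was 39.7, 68.8 and 40.5 CPM, a log2 ratio of 0.80 (0.65 to 0.94) for the library labelled HHcy that became 0.56 with the same mix of sub-clusters and 0.12 (-0.05 to 0.30) without Apoe-high barcodes. The part of these barcodes in the result was not tested further.

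Another sub-cluster, of 64, 39 and 163 cells, was led by non-classical monocyte genes and Cd79a. At least 25% of its cells also detected 9, 10 and 10 of 10 resident macrophage markers, and 6, 7 and 2 of 12 B cell markers. It is therefore not read as monocytes alone. Its Timd4 level was 34.4 CPM (22.9 to 49.7), 77.1 CPM (54.3 to 106) and 25.5 CPM (19.6 to 32.6), with 26.6%, 33.3% and 19% of cells positive. In the larger non-classical monocyte-like sub-cluster, with 0, 1 and 0 resident markers at that share, 1.20%, 1.33% and 1.33% of cells were positive. In the sub-cluster with Cd79a the library labelled HHcy was the highest, apart from both others, with a log2 ratio of 1.16 (0.42 to 1.93). Outside these cells, Timd4 was found in cDC1-like cells, the cross-presenting dendritic cells, at 48.1, 47.6 and 25.8 CPM, where WD was lower by a log2 ratio of -0.90 (-1.38 to -0.43). B1-like cells had 0.729 to 1.09 CPM and neutrophil-like cells 0.429 to 4.27 CPM. Foamy-like cells had 1.71, 4.00 and 3.51 CPM of Timd4 from 7, 8 and 30 UMIs, and fibroblast-like, endothelial-like and mast cell-like cells had 0 UMIs in each library.

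**Figure D3:**
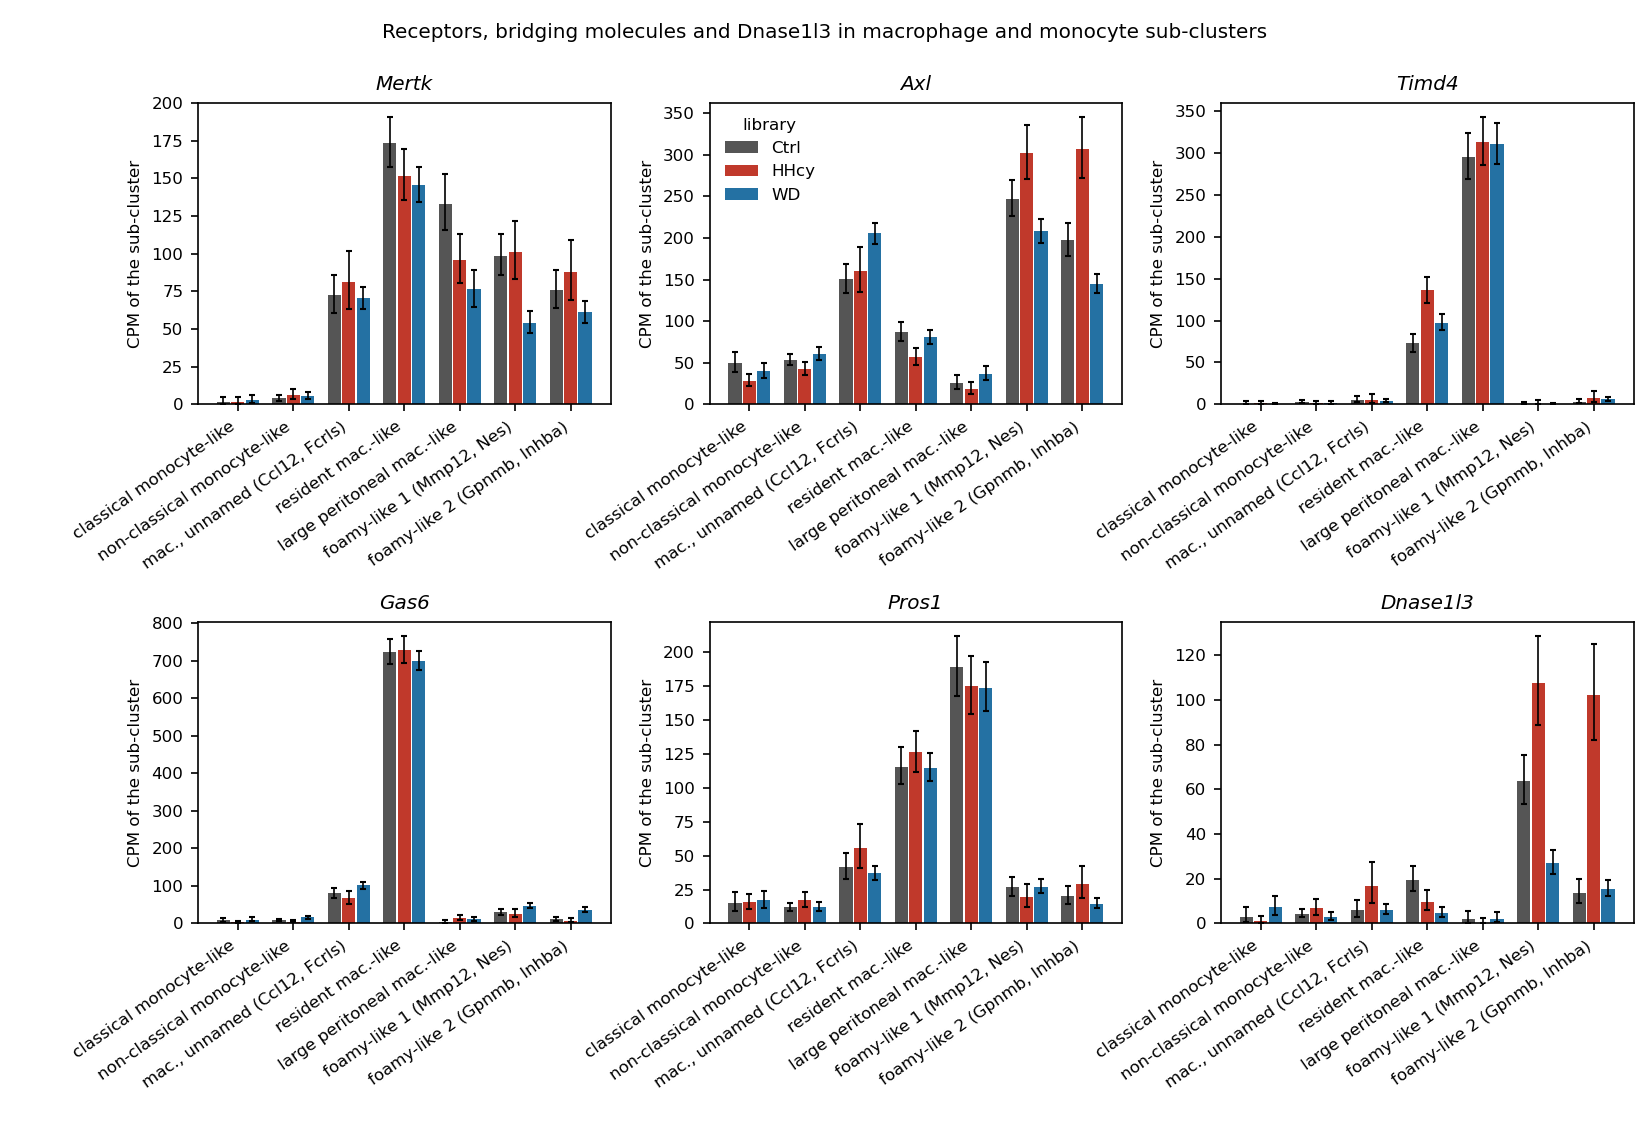
CPM of Mertk, Axl, Timd4, Gas6, Pros1 and Dnase1l3 (panels, each with its own axis from 0) in 7 macrophage and monocyte sub-clusters of the Ctrl library, the library labelled HHcy and the WD library; bars are CPM of the summed UMIs and whiskers exact Poisson 95% intervals. Gas6 reaches about the same height in resident-like cells of the 3 libraries (724, 730 and 700 CPM), Timd4 differs between libraries in resident-like cells while its large peritoneal-like bars (295, 313 and 311 CPM) have overlapping intervals, and Dnase1l3 stands out in foamy-like cells of the library labelled HHcy.

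Cd300lf had its highest level in neutrophil-like cells, at 462 CPM (419 to 507), 415 CPM (389 to 442) and 511 CPM (470 to 554). There 78.9%, 83.9% and 78.6% of cells held a UMI, and 60.6%, 59.9% and 63.5% at 2000 UMIs per cell. The log2 ratios to Ctrl were -0.15 (-0.32 to 0.01) and 0.15 (-0.04 to 0.33), so the neutrophil level did not differ beyond counting error in either comparison. Classical monocyte-like cells had 110, 63.1 and 97.6 CPM, where the library labelled HHcy was lower by a log2 ratio of -0.80 (-1.14 to -0.46). Of the foamy-like sub-clusters, the one led by Gpnmb and Inhba had 119, 65.4 and 119 CPM and the one led by Mmp12 and Nes 34.2, 40.0 and 36.6 CPM. Resident-like cells had 4.87 to 5.50 CPM, close to the 3.72 to 4.86 CPM of T cell-like cells.

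In B cells Cd300lf was 53.7 CPM (50.6 to 56.9), 21.8 CPM (20.2 to 23.5) and 42.9 CPM (39.0 to 47.0), and 21.4%, 10.0% and 16.9% of cells were positive. The log2 ratio was -1.30 (-1.44 to -1.16) in the library labelled HHcy, and that of WD was -0.32 (-0.49 to -0.17). B1-like cells carried the highest level, 78.6, 55.1 and 65.4 CPM, at log2 ratios of -0.51 (-0.67 to -0.36) and -0.27 (-0.44 to -0.09). Naive follicular B-like cells had 20.1, 8.76 and 15.6 CPM, with -1.20 (-1.60 to -0.79) and -0.37 (-0.94 to 0.18). With the same mix of B cell sub-clusters in both libraries the ratio of the library labelled HHcy was -0.71, so the B cell value combines a lower level within sub-clusters and a smaller B1-like share. T cell-like cells, as a class that should hold little of the gene, were positive in 2.24%, 3.08% and 2.19% at median depths of 3625.5, 5777 and 4422 UMIs; the B1-like medians were 10564.5, 11313 and 10778 UMIs.

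Gas6, the ligand of Mertk and Axl, was expressed most per cell type by fibroblast-like cells (1666, 630 and 1324 CPM) and by resident macrophage-like cells. In resident-like cells it was 724 CPM (691 to 759), 730 CPM (694 to 766) and 700 CPM (675 to 726), and 82.3%, 83.8% and 83.9% of cells held a UMI. These are nearly equal, at log2 ratios of 0.01 (-0.09 to 0.11) and -0.05 (-0.14 to 0.04). The lower fibroblast value of the library labelled HHcy, a log2 ratio of -1.40 (-1.60 to -1.21), rests on 31 cells in the Ctrl library and 85 in the other, and the sort was for CD45+ cells, which fibroblasts lack. Endothelial-like cells had 220, 230 and 242 CPM. Foamy-like cells had 20.5, 17.5 and 41.6 CPM of Gas6, where WD was higher by a log2 ratio of 1.02 (0.67 to 1.38), and -0.06 when the libraries were clustered apart. Large peritoneal-like cells had 3.86 to 14.2 CPM (18.4 CPM in the library labelled HHcy without Apoe-high barcodes), so the peritoneal-like cells were low in Gas6 in every library while they were high in Timd4.

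The receptor Mertk and its ligand Gas6 were detected together in many resident macrophage-like barcodes. Of them, 44.4% (39.8 to 49.0), 52.3% (46.9 to 57.6) and 47.0% (43.0 to 51.1) had at least 1 UMI of both Mertk and Gas6. Gas6 was found in 85.5%, 92% and 91% of Mertk-positive and 78.9%, 73% and 76.3% of Mertk-negative resident-like cells, shares that also depend on the depth of each cell. Gas6 and Timd4 were found together in 23.5%, 40.3% and 30.2% of resident-like cells, and in 2.59%, 9.76% and 5.98% of large peritoneal-like cells. As a background, Gas6 was found in 5.22%, 7.18% and 9.49% and Mertk in 0%, 3.08% and 2.19% of T cell-like cells, at the median depths of 3625.5, 5777 and 4422 UMIs.

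Pros1, the anticoagulant protein S that also binds Mertk, was highest among macrophages in large peritoneal-like cells, with 189 CPM (168 to 212), 175 CPM (154 to 198) and 174 CPM (157 to 193). Resident-like cells had 116, 126 and 115 CPM. Both log2 ratios in resident-like cells, 0.12 (-0.12 to 0.37) and -0.01 (-0.23 to 0.21), and both in peritoneal-like cells, -0.11 and -0.12, had intervals that include 0. Mast cell-like cells had 165, 140 and 205 CPM from 35, 24 and 11 cells, and neutrophil-like cells 0 to 3.51 CPM. Over all macrophages and monocytes Pros1 was 49.7, 62.9 and 48.2 CPM, and the higher value of the library labelled HHcy, a log2 ratio of 0.34 (0.20 to 0.48), became 0.14 with the same mix of sub-clusters and 0.12 (-0.04 to 0.27) without Apoe-high barcodes.

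Mfge8, the milk fat globule protein that bridges dying cells to integrins, looked lower in macrophages of both treated libraries, with 56.0 CPM (52.6 to 59.6), 14.6 CPM (12.6 to 17.0) and 15.3 CPM (13.9 to 16.8). The log2 ratios were -1.94 (-2.18 to -1.70) and -1.87 (-2.04 to -1.71). The share of positive cells was 9.10%, 9.98% and 12.2%. These shares are not at equal depth and also depend on the depth of each cell, so no trend is read from them. The Ctrl value came from 5 barcodes with 549, 82, 56, 32 and 29 UMIs of Mfge8, which together held 748 of the 1001 UMIs, or 74.7%. All 5 were foamy-like and carried Spp1, Gpnmb and Trem2. In the library labelled HHcy the highest macrophage barcode held 5 UMIs and in the WD library 15.

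Without barcodes of 10 or more Mfge8 UMIs, a limit chosen after the values were seen, macrophages had 14.3, 14.6 and 14.8 CPM of Mfge8. The log2 ratios were then 0.04 (-0.25 to 0.32) and 0.05 (-0.17 to 0.28). The lower Mfge8 level of both treated libraries in macrophages thus rested on 5 barcodes in the Ctrl library.

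In B cells Mfge8 was 15.7, 2.97 and 28.5 CPM, giving log2 ratios of -2.40 (-2.75 to -2.07) and 0.86 (0.63 to 1.09). One barcode held 261 of the 324 UMIs of the Ctrl library (80.6%) and one held 262 of the 300 UMIs of the WD library (87.3%). Both lay in the unnamed B cell sub-cluster with Cxcl2 and Ccl4 among its leading genes. The Ctrl barcode held 231 UMIs of Cxcl13, 127 of Clu, 29 of Sox9, 10 of Madcam1, 6 of Coch and 6 of Enpp2, and the WD barcode 145, 279, 10, 11, 58 and 4. These 6 genes were the whole list of follicular dendritic cell markers, the stromal cells of B cell follicles, for which Mfge8 is a known product. Of 12 B cell markers each of these barcodes held 1 (Ms4a1 with 1 UMI, and Ebf1 with 4 UMIs), and Cd79a was at 0. At least 5 of the 6 markers were found in 1, 0 and 1 barcodes of the 3 libraries. Without these 2 barcodes B cells had 3.05, 2.97 and 3.62 CPM, giving log2 ratios of -0.04 (-0.52 to 0.44) and 0.24 (-0.38 to 0.85).

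The highest Mfge8 levels with many positive cells were in cells other than B cells and macrophages. Mast cell-like cells had 374, 337 and 483 CPM, with 85.7%, 70.8% and 100% of cells positive. Fibroblast-like cells had 236, 272 and 198 CPM and endothelial-like cells 320, 262 and 163 CPM, the latter from 16, 57 and 58 UMIs. Among macrophages, large peritoneal-like cells had 41.2 CPM (31.7 to 52.6), 48.8 CPM (38.2 to 61.5) and 49.6 CPM (40.5 to 60.1), which overlap. Without Apoe-high barcodes the middle value was 63.7 CPM, a log2 ratio of 0.63 (0.07 to 1.18) to Ctrl, and the Apoe-high cells had 30.4 CPM.

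**Figure D4:**
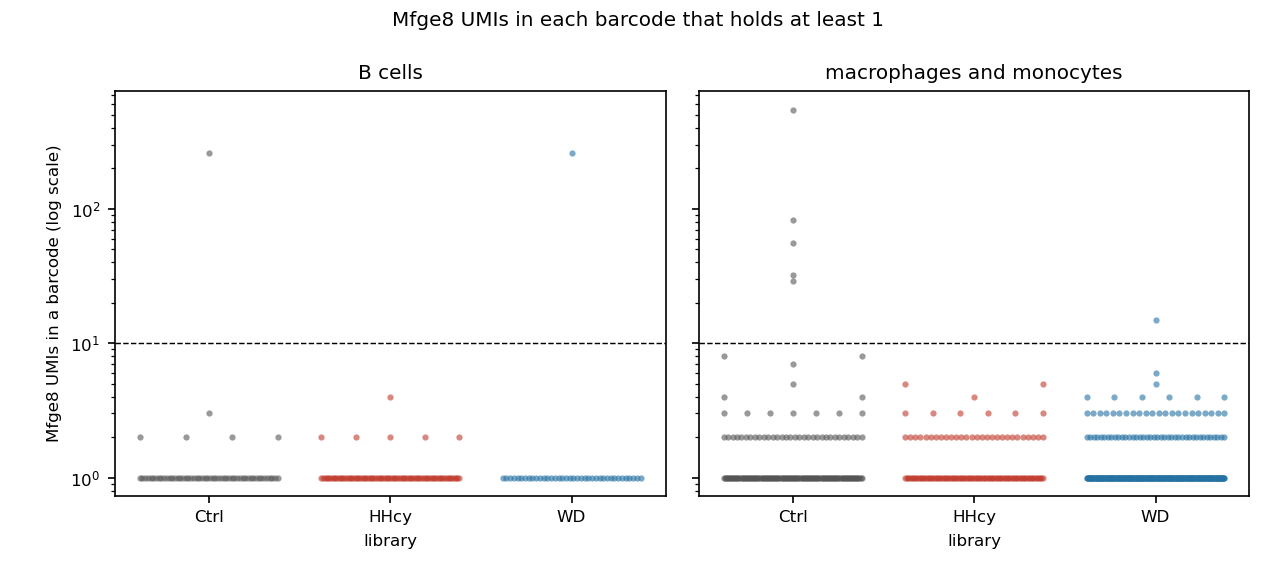
UMIs of Mfge8 in each barcode that holds at least 1 (log axis), for B cells (left) and macrophages and monocytes (right) of each library; points are single barcodes and the dashed line marks 10 UMIs. Above the line lie 1 barcode each in B cells of Ctrl and WD (261 and 262 UMIs), 5 in macrophages of Ctrl and 1 of WD (15 UMIs).

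Dnase1l3 was the member with the most marked B cell pattern. In B cells it was 114 CPM (110 to 119), 34.2 CPM (32.1 to 36.3) and 94.4 CPM (88.6 to 100), and 29.9%, 11.8% and 24.2% of cells held a UMI. The log2 ratios were -1.74 (-1.85 to -1.64) and -0.27 (-0.38 to -0.17). No single barcode carried this: the highest held 21, 17 and 23 UMIs, at most 2.32% of its library's total. T cell-like cells were positive in 0 of 134, 2 of 195 and 0 of 137 cells and neutrophil-like cells in 2.22%, 1.76% and 1.15%. This gives the level of background detection at median depths of 3625.5, 5777 and 4422 UMIs (T) and 4340.5, 4839 and 3917 UMIs (neutrophil). The B cell medians were 7431, 6442 and 6518.5 UMIs.

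B1-like cells held most of the gene. Their level was 175 CPM (168 to 183), 99.1 CPM (92.6 to 106) and 162 CPM (152 to 173), with 52.8% (49.8 to 55.8), 43.0% (39.3 to 46.7) and 52.8% (48.2 to 57.3) of cells positive. At 2000 UMIs per cell the shares were 22.3%, 14% and 24.6%. The library labelled HHcy was the lowest, apart from both others, with a log2 ratio of -0.82 (-0.94 to -0.71), while WD was at -0.11 (-0.23 to 0.00). Summed B1 markers were also lower in B1-like cells of that library, at 4184, 3084 and 3801 CPM, and their part in the result was not tested. When cells were named singly by markers the ratio was -0.48.

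The other B cell sub-clusters had lower levels. Immature B-like cells had 50.4, 23.1 and 31.7 CPM, at log2 ratios of -1.12 (-1.84 to -0.45) and -0.67 (-1.27 to -0.09). Naive follicular B-like cells had 12.8, 6.47 and 13 CPM, with -0.98 (-1.47 to -0.48) and 0.02 (-0.64 to 0.67). The cycling sub-cluster had 9.16, 11.1 and 8.11 CPM, from 16, 29 and 4 UMIs, with overlapping intervals. Because B1-like cells were 18.6% of B cells in one library and 47.3% in Ctrl, the class value depends on the mix. With the same mix of sub-clusters in both libraries the log2 ratio was -0.87 for the library labelled HHcy and -0.14 for WD, close to the ratios within B1-like cells. Ratios within sub-clusters and with the same mix use the same UMIs as the class value, so they are no separate support for it.

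**Figure D5:**
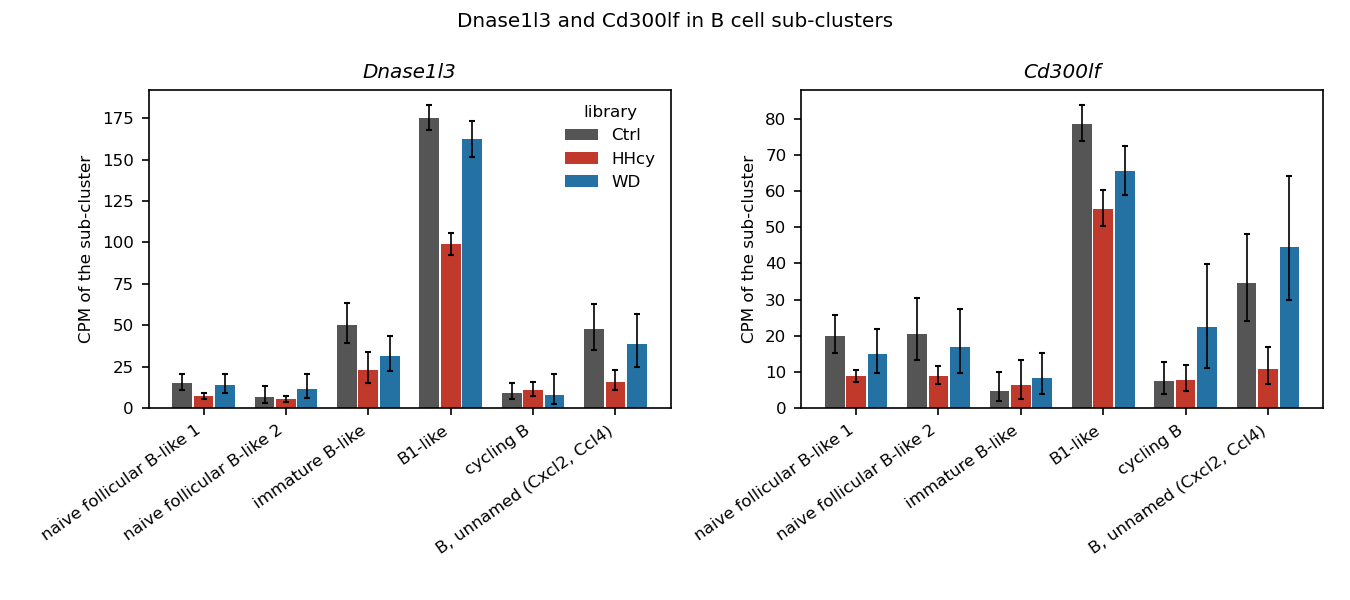
CPM of Dnase1l3 (left) and Cd300lf (right) in 6 B cell sub-clusters of the 3 libraries; bars are CPM of the summed UMIs and whiskers exact Poisson 95% intervals. B1-like cells are highest for both genes, and the library labelled HHcy is lowest there (99.1 CPM of Dnase1l3 and 55.1 CPM of Cd300lf).

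In macrophages and monocytes Dnase1l3 was 17.9, 22.6 and 9.23 CPM, giving log2 ratios of 0.34 (0.10 to 0.58) and -0.95 (-1.19 to -0.71). Foamy-like cells were highest, at 39.3 CPM (33.5 to 45.9), 105 CPM (91.3 to 120) and 20.9 CPM (18.0 to 24.2), with 16.9%, 30.5% and 9.06% of cells positive. Here the library labelled HHcy was the highest and WD the lowest, with no overlap and log2 ratios of 1.42 (1.11 to 1.72) and -0.91 (-1.23 to -0.59). The foamy-like markers themselves summed to 10799, 7755 and 8418 CPM in the sub-cluster led by Mmp12. In the one led by Gpnmb they summed to 17106, 7545 and 17493 CPM, so the library labelled HHcy was lowest in both. The 6 markers of splenic or lymph node macrophages summed to 283, 2322 and 207 CPM in the sub-cluster led by Gpnmb. Of these markers, 1, 3 and 1 were found in at least 25% of its cells. In the sub-cluster led by Mmp12 they summed to 230, 308 and 122 CPM. The part of both marker lists in this result, and in those of Axl and Cd300lf in foamy-like cells, was not tested. At 2000 UMIs per cell 7.85%, 15.0% and 2.31% of foamy-like cells were positive. The sub-cluster led by Mmp12 and Nes had 63.7, 107 and 27.2 CPM and the one led by Gpnmb and Inhba 13.6, 102 and 15.6 CPM. The median depths were 12274, 10441 and 14712.5 UMIs. Without Apoe-high barcodes the first ratio was 1.31, and the second turned to 0.12 with multiplets kept.

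The B cell markers summed to 244, 326 and 246 CPM in the foamy-like cells led by Mmp12 and to 177, 362 and 112 CPM in those led by Gpnmb, with 11 of 12 markers above 0 in the first of Ctrl (Pax5 at 0) and 12 of 12 in the others. In B cells the same list summed to 12325, 12167 and 13734 CPM. Their part in the Dnase1l3 difference was not tested. A few barcodes weighed on the totals: the highest held 26, 15 and 27 UMIs of Dnase1l3 in the sub-cluster led by Mmp12 and 10, 23 and 22 in the one led by Gpnmb, out of 134, 118 and 107 and of 27, 92 and 72 UMIs. In resident-like cells Dnase1l3 was 19.5, 9.63 and 4.77 CPM, but 1 Ctrl barcode held 22 of the 48 UMIs, and the share of positive cells was 5.17%, 5.11% and 3.16%. The ratio of HHcy-labelled to Ctrl cells, -1.02 (-1.83 to -0.25) on the log2 scale, turned to 0.52 at a finer clustering, 0.55 with the libraries clustered apart and 0.39 when cells were named singly by markers.

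The other 69 genes of a clearance list, ordered by role, gave the setting for the members. In B cells 46 could be compared in the library labelled HHcy. Of these, 2 were at least 1.5-fold higher and 4 lower, against 3.03% and 6.58% of 10257 genes. The median log2 ratio was -0.06 against -0.04 for all genes. The 2 higher were Abca1, a cholesterol exporter (63.8 to 107 CPM, log2 ratio 0.75), and the integrin subunit Itgb3 (0.63). The 4 lower were Sirpa, the receptor of the do-not-eat-me signal Cd47 (30.8 to 16.2 CPM, -0.92), the chemokine receptor Cx3cr1 (-1.26), the scavenger receptor Lrp1 (-0.67) and S1pr1, the lymphocyte egress receptor (218 to 143 CPM, -0.61). These are ratios over all B cells, of which B1-like cells were 47.3% in Ctrl and 18.6% in the library labelled HHcy. The part of that mix in the list genes was not tested. In the WD library 5 of 44 were higher and 0 lower, against 1.67% and 1.73% of 9532 genes, with a median of 0.04 against 0.00. The 5 higher were C3 (1.24), C1qb (1.10), C1qa (0.94), C1qc (0.66) and Abca1 (0.73).

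The complement genes C1qa, C1qb and C1qc, whose protein opsonises dying cells, are macrophage products, and in B cells they reached 44.5, 57.8 and 85.3 CPM (C1qa). Summed macrophage/monocyte markers in B cells were 317, 293 and 411 CPM with 13 of 13 above 0 in each library, and their part in this was not tested. In macrophages the same 3 genes were higher in WD, with C1qa at 1950, 2678 and 3266 CPM and log2 ratios of 0.74, 0.74 (C1qb) and 0.59 (C1qc). In all, 3 of 57 list genes were higher and 4 lower in macrophages of the WD library, against 2.69% and 2.86% of 10699 genes. The median was -0.12 against -0.02 for all genes. The lower ones were the scavenger receptor Olr1 (-1.34), Gpr132 (-0.68), the channel Panx1 (-0.61) and Havcr2, also called Tim-3 (-0.60). In the library labelled HHcy 0 of 56 were higher and 2 were lower, Olr1 (-0.73) and Havcr2 (-0.64), against 2.05% and 2.51% of 9889 genes. The median there was -0.07 against -0.05 for all genes. No shift of the list is read from its counts in either class. Of the 9 list genes for nucleases and DNA sensing, 4 could be compared in each class and 0 passed 1.5-fold in either direction. At the shares over all genes given above, 4 genes are too few for anything to be read from that count. Dnase2a, the lysosomal nuclease, was at 55.4, 53.7 and 52.0 CPM in B cells.

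Genes with the most similar pattern over 59 units (a class or sub-cluster of at least 50 cells in a library; 10577 genes) were named by Pearson's correlation of log2(CPM + 1). These units share libraries, depth and parent classes, so the values describe likeness and carry no p. Mertk was closest to C1qc (0.94), C3ar1 and Dhrs3, and Axl to Anxa5 (0.96), Itgb5 and Tnfsf12. Gas6 was closest to Igfbp4 (0.92), Samd4 and Rnase4, Pros1 to Abca9 (0.93), and Timd4 to Ednrb (0.90), Fcna and Ltc4s. Cd300lf was closest to Plaur (0.83), Irak2 and Bcl2l11, and Dnase1l3 to Cd83 (0.73), Cd74 and Fgd2. Among the members themselves Mertk was closest to Pros1 (0.82) and Axl (0.78).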

How the data were processed

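Single-cell RNA was counted in 3 libraries (Chromium 3′ v3), 1 per group. The authors deposited matrices of whole-number UMI counts per gene and barcode, which the headers of the files attribute to Cell Ranger 4.0.0, while the submitters' processing notes name Cell Ranger 2.2.0 and the build mm10. The files hold filtered barcodes and no annotation of cells.

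Barcodes with at least 200 genes and at most 10% mitochondrial UMIs were kept, and barcodes with markers of more than 1 lineage were left out as multiplets. Cells were clustered with scanpy 1.11.5 and igraph 0.11.9 (2000 variable genes, 30 principal components, 20 neighbours, resolution 1, sub-clusters at 0.5) and named from marker lists without the members. UMIs were summed per class and library and divided by all UMIs of those cells (CPM). Exact Poisson intervals for sums, Clopper-Pearson intervals for shares and conditional binomial intervals for ratios (95%, scipy 1.17.1) cover counting error only. A gene was compared where both libraries together held 100 UMIs, and was counted as higher or lower past 1.5-fold. Scaling alternatives used edgeR 4.0.16 in R 4.3.3. The ratio code was tested on simulated data. The named genes were the 8 members, clearance-list genes past 1.5-fold and the most similar genes. The members and lists were chosen with earlier results of these data known. Alternatives changed the mitochondrial limit, multiplets, clustering, naming, scaling, depth, cell mix and the UMI minimum. 2 more, which leave out Mfge8-high barcodes or the unnamed B cell sub-cluster, were added after the data were seen. Some of the most similar genes are not reported here.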

Additional observations from a re-analysis of the deposited data

Results flagged for a closer look

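Some ratios to the Ctrl library had opposite signs in different cell types, and for none of these pairs was the difference tested, since each group had 1 library. For the library labelled HHcy, the log2 ratio of Axl was -0.61 in resident macrophage-like cells and 0.45 in foamy-like cells. Dnase1l3 in the same library was at -1.74 in B cells and 0.34 in macrophages and monocytes. Among sub-clusters, Dnase1l3 was at -0.82 in B1-like cells and -1.02 in resident-like cells against 1.42 in foamy-like cells, and 22 of the 48 Ctrl UMIs in resident-like cells came from 1 barcode, and the resident-like ratio turned to 0.52, 0.55 and 0.39 under 3 other ways of grouping the cells. For the WD library, Mfge8 was at 0.86 in B cells and -1.87 in macrophages and monocytes, values that rest on the few barcodes described above.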

How the results depend on the processing

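All values here are log2 ratios to the Ctrl library. Over 917 alternative values of 100 ratios, 819 kept their sign, 748 stayed within the counting error, 152 moved and 17 reversed. Neither TMM nor median-of-ratios scaling moved any of the 100 ratios beyond that error. No paired analysis was possible because each group had 1 library, so leaving out a replicate was not run.

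Mfge8 depended most on which barcodes were included. In B cells of the library labelled HHcy it was -0.067 with 20% mitochondrial UMIs allowed, 0.18 with multiplets kept, -0.066 at resolution 2, -0.029 with each library clustered on its own, -0.11 with cells named singly by markers, -1.02 at 2000 UMIs per cell, -0.041 without Mfge8-high barcodes and 0.054 without the unnamed sub-cluster. In B cells of WD the same settings gave 0.29, 0.40, 0.20, 0.22, 0.13, 1.35, 0.24 and 0.34, and the same mix 0.53. In macrophages of the library labelled HHcy, Mfge8 was -2.27 with each library clustered on its own, -0.77 at 2000 UMIs per cell and 0.038 without Mfge8-high barcodes, and in WD -2.19, -0.99 and 0.054, and -1.45 with multiplets kept. In foamy-like cells with multiplets kept it was 2.56 and 1.25.

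Dnase1l3 in B cells was -1.98 at 2000 UMIs per cell and -0.87 with the same mix for the library labelled HHcy, and -0.49 with multiplets kept, -0.42 at 2000 UMIs and -0.14 with the same mix for WD. In B1-like cells named by their own markers it was -0.48 and 0.12. In resident-like cells of the library labelled HHcy it was 0.52 at resolution 2, 0.55 with each library clustered on its own and 0.39 by own markers, and in foamy-like cells of WD 0.12 with multiplets kept. Cd300lf in B cells with the same mix was -0.71, and in large peritoneal-like cells 0.51 with multiplets kept (labelled HHcy) and 0.34 by own markers (WD).

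Timd4 in macrophages of the library labelled HHcy was 0.60 with multiplets kept, 0.64 at 2000 UMIs, 0.56 with the same mix and 0.12 without Apoe-high barcodes, and in WD -0.15 at 2000 UMIs and 0.22 with the same mix. In resident-like cells it was 0.57 at 2000 UMIs (labelled HHcy), and for WD 0.079 with 20% mitochondrial UMIs, -0.10 at resolution 2 and -0.034 at 2000 UMIs. In foamy-like cells of WD it was -0.0041 at resolution 2 and -2.41 at 2000 UMIs. Gas6 in foamy-like cells of WD was -0.056 with each library clustered on its own, and in large peritoneal-like cells at 2000 UMIs -0.49 and -0.012. The cause of these changes was not tested, except that fewer UMIs or barcodes enter the thinned values and those without listed barcodes.

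Of the clearance list in B cells, 6 genes were higher at a minimum of 1 UMI and 7 or 10 lower at 20 or 1 UMIs in the library labelled HHcy. In WD 10 or 16 were higher and 1 or 4 lower. In macrophages 1 or 3 were higher and 4 lower at 1 UMI in the library labelled HHcy, and 7 higher at 1 UMI in WD. Of the members in B cells, 3 were higher and 0 lower in WD, and 1 higher and 3 lower in the library labelled HHcy, at 20 or 1 UMIs. At these minima the share over all genes past 1.5-fold was not counted. The counts in this paragraph therefore have no background, and no shift of the list or members is read from them.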
